A study of Mus musculus with 8 samples.

Results

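The genes described here encode the ErbB receptors (Egfr, Erbb2, Erbb3 and Erbb4) and the ligands Areg, Btc, Ereg, Hbegf, Tgfa and Nrg1 that bind them. They were chosen by name and found through the gene symbols of the array's annotation. Of these 10 genes, 9 were measured, each by 1 probe set, among 19505 genes on the Affymetrix array used for all samples. Areg was not analysed here. The samples were luminal cells, the cells that line the ducts and alveoli of the mammary gland, sorted by flow cytometry from mice on day 15 of pregnancy. There were 4 samples labelled control and 4 labelled a3a6KO, which names the integrin chains alpha 3 and alpha 6 (genes Itga3 and Itga6), parts of receptors for laminin in the basement membrane. The series design calls the samples biological replicates. The mouse strain, the alleles, the Cre line and whether a sample was 1 mouse or a pool were not stated in the labels. The 4 a3a6KO samples have titles with both DKO and Ctrl in them, and were grouped by the subtype label, which gives the knockout alone.

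ErbB receptors are tyrosine kinases of the cell surface that work in pairs. Erbb2 has no known ligand of its own and Erbb3 is a poor kinase, so both depend on a partner. Areg, Tgfa, Btc, Ereg and Hbegf bind Egfr, and Btc, Ereg and Hbegf also bind Erbb4, while the neuregulin Nrg1 binds Erbb3 and Erbb4. The ligands are made as precursors in the membrane and are released by proteases such as Adam17. In the mammary gland, signals through Egfr are known for the growth of ducts, and Erbb4 is known to act through the transcription factor Stat5 in the cells that make milk. In the RefSeq gene table (GRCm38.p6), the ligand genes Epgn, Ereg, Areg and Btc are consecutive coding genes on chromosome 5.

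None of the 9 receptor and ligand genes passed the threshold of the test for a difference between the groups. Means were higher in a3a6KO for Egfr, Erbb3, Btc and Hbegf and lower for Erbb2, Erbb4, Ereg, Tgfa and Nrg1, by at most 0.79 on the log2 scale, where a difference of 1 is a 2-fold change. In each of the 9 genes the values of both groups overlapped, and each 95% interval of the difference included 0. The limma fit over all genes called 0 of 19505 genes (0%) and 0 of the 9, with adjusted p-values of 0.950 to 0.978 for the 9 genes. The eBayes fit with trend and robust settings also called 0 genes. At an unadjusted p under 0.05 there were 1000 genes (5.13%) and 0 of the 9. The intervals were wide, as described for each gene, so these data do not show that the genes were alike in both groups.

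Most of the 9 genes lay under the limit used for background on most or all arrays. Background was taken from 5222 control probe sets that lie in introns, and a gene counted as above it where its value was over the 95th percentile of such sets on that array (log2 values of 6.38 to 6.90). Erbb3 was above background on 6 of 8 arrays, Erbb2 and Hbegf on 2 each and Nrg1 on 1. Egfr, Erbb4, Btc, Ereg and Tgfa were above it on no array, which was also so for 14900 of all genes (76.4%). A gene under that line can still lie above most intron sets, whose medians were 2.85 to 3.07. The deposited log2 values were normalized with RMA, which makes the arrays alike in distribution, and a shift shared by most genes would not be seen. In these bulk samples, fewer cells of a type and less RNA per cell cannot be told apart.

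**Figure D1:**
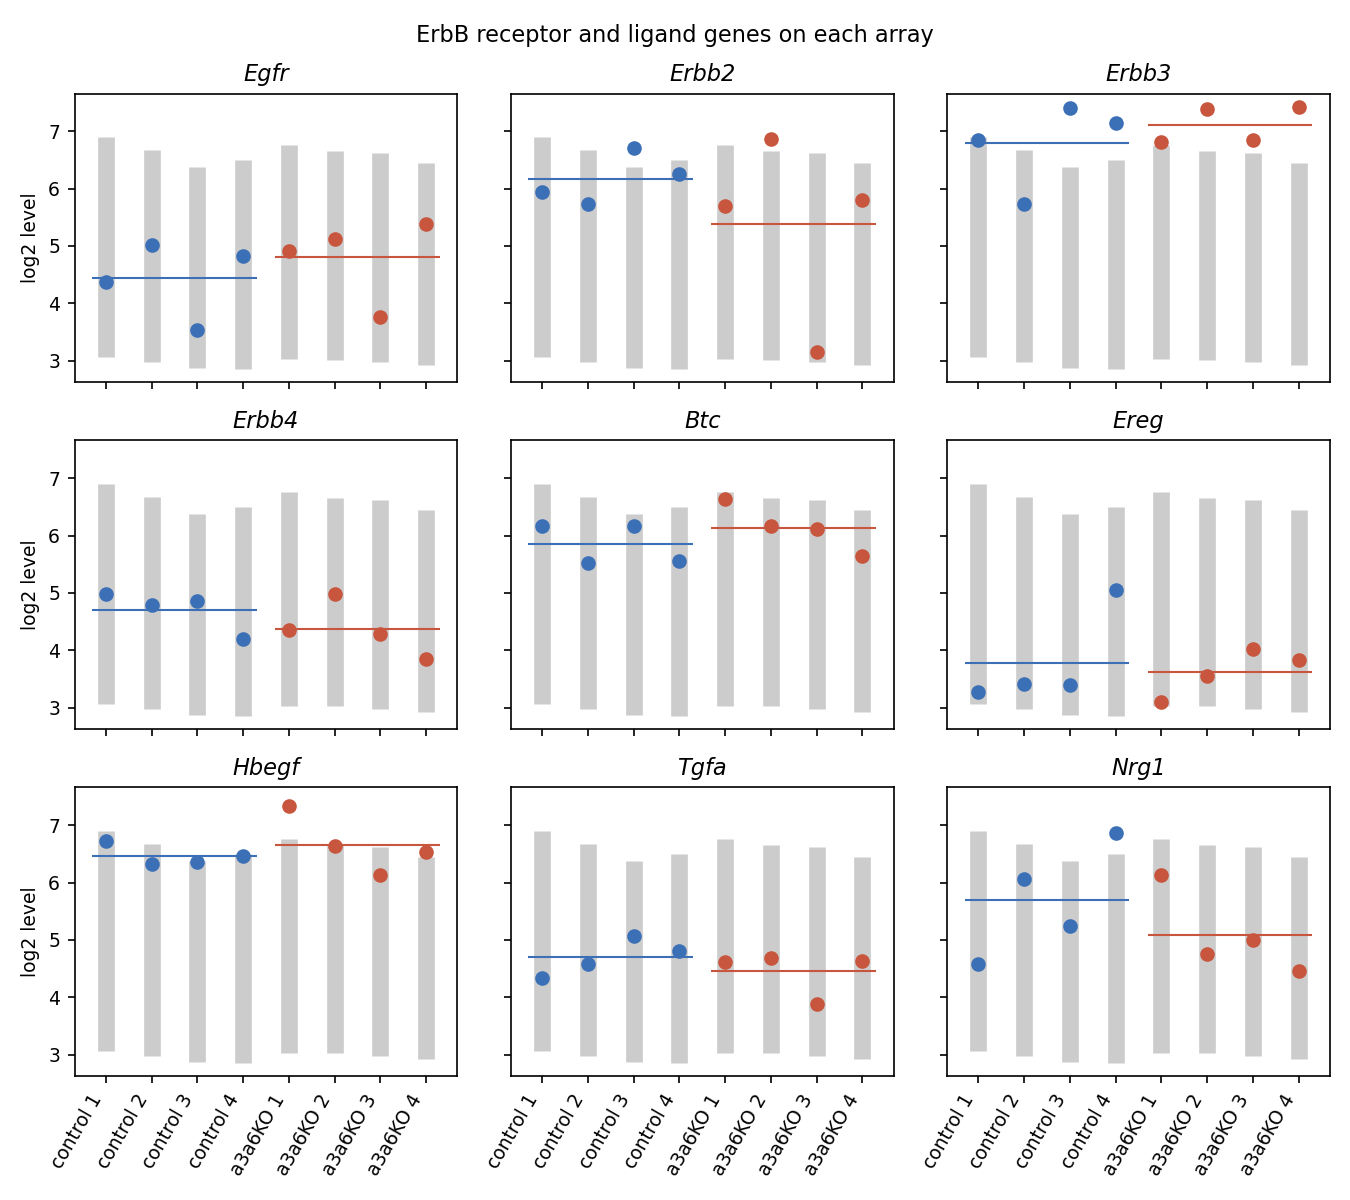
Log2 level (vertical axis) of each of the 9 genes on each array, in blue for control and in red for a3a6KO, with horizontal lines at the group means. Grey bars run, for the intron control sets, from their median to their 95th percentile on that array, and Erbb3 stands above them on 6 of 8 arrays while Egfr, Erbb4, Btc, Ereg and Tgfa stand within them on each array.

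Checks of the labels bear on each comparison. Of 10 luminal markers, 9 were above background on all arrays, and Krt8, a keratin of luminal cells, had a mean log2 level of 10.4 ± 0.19 in the control group and of 10.5 ± 0.14 in the a3a6KO group (SD, n = 4). Itga6 was at 8.83, 8.73, 9.14 and 8.80 in control and 5.95, 3.65, 8.21 and 7.85 in a3a6KO. The other target, Itga3, was at 6.72, 6.30, 5.37 and 7.27 in control and 5.11, 4.34, 5.55 and 5.60 in a3a6KO. Itga6 differed by -2.46 and Itga3 by -1.265, and neither passed the threshold (limma adjusted p = 0.944 for each). Only control 4 exceeded background for Itga3, so the size of its difference is uncertain. Itga6 stayed above background in a3a6KO 3 and 4, and where its probes lie relative to the deleted part is not known here. The arrays also differed in markers of basal and myoepithelial cells, which surround the luminal layer. Of 16 such markers, 15 had a lower mean in a3a6KO, beside 50.1% of all genes, with a median difference of -0.59. Of these 16, 0 passed the limma threshold (smallest adjusted p = 0.944). Krt5 differed by -2.54, Krt14 by -1.60 and the basal factor gene Trp63 by -2.43, and the groups did not overlap for Trp63. The mean log2 level of the 16 genes was 5.90 to 7.61 in control and 5.39 to 7.03 in a3a6KO, and Krt14 was above background on all arrays. Their part in the ErbB values was not tested beyond a fit with the basal score as a covariate. Endothelial markers, 9 genes, ran from 4.01 to 6.20 in control and from 3.81 to 5.87 in a3a6KO, with control 4 and a3a6KO 3 the highest of their groups. Of 9 endothelial, 8 fibroblast, 7 leukocyte and 7 adipocyte markers measured, 4, 7, 5 and 6 were above background on no array. The same held for 76.4% of all genes. Only Cd14 of the leukocyte list and Fabp4 of the adipocyte list were above background on all 8 arrays. Fabp4 was highest on control 4 (11.42) and a3a6KO 3 (11.25), the arrays with the highest endothelial scores. Which cells these transcripts came from was not tested.

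Among the receptors, Erbb3, the partner receptor for neuregulins, was measured best. Its log2 values were 6.85, 5.74, 7.41 and 7.15 in control and 6.81, 7.39, 6.84 and 7.43 in a3a6KO. All 4 a3a6KO arrays and control 3 and 4 exceeded background, control 2 was the lowest of the 8, and the groups overlapped. The control mean was 6.79 ± 0.73 and the a3a6KO mean 7.12 ± 0.34 (SD, n = 4). The difference was 0.33 (SE 0.352, 95% interval -0.46 to 1.12, limma adjusted p = 0.952). Without control 2 it was -0.019, so its direction rested on that array.

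Erbb2, the receptor without a ligand of its own, varied most of the 9 genes. It was at 5.95, 5.74, 6.71 and 6.26 in control and 5.69, 6.87, 3.15 and 5.80 in a3a6KO. The low value belonged to a3a6KO 3 and lay apart from the other 7 arrays, whereas a3a6KO 2 held the highest value of all 8. The difference of -0.79 (SE 0.67, 95% interval -2.30 to 0.72, limma adjusted p = 0.950) was smaller than the SD of 1.58 among the a3a6KO samples. It was -0.045 without a3a6KO 3 and -1.28 without a3a6KO 2. The within-group SD of Erbb2, 1.15, was larger than that of 98.4% of all genes. Only control 3 and a3a6KO 2 exceeded background. With the basal marker score as a covariate, the difference became -1.60 (limma adjusted p = 0.831). The array with the low Erbb2 value, a3a6KO 3, alone in its group had a high basal score (0.78, against -0.86, -0.82 and -0.76). Control 4 had the highest basal score of all arrays (1.36), with Erbb2 at 6.26. How far a3a6KO 3 set the covariate result was not tested.

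Egfr, the receptor of Areg, Tgfa and the other ligands of the epidermal growth factor type, was at 4.38, 5.01, 3.53 and 4.82 in control and 4.92, 5.13, 3.76 and 5.39 in a3a6KO. Control 3 and a3a6KO 3 were the low arrays of their groups, and no array exceeded background. The difference was 0.37 (SE 0.414, 95% interval -0.57 to 1.30, limma adjusted p = 0.956). It was 0.71 without a3a6KO 3 and 0.063 without control 3.

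Erbb4, the receptor tied to Stat5 in secretory cells, was at 4.99, 4.79, 4.86 and 4.19 in control and 4.35, 4.99, 4.28 and 3.84 in a3a6KO. Control 4 was low in its group and a3a6KO 2 equalled the highest control. Its difference was -0.34 (SE 0.273, 95% interval -0.96 to 0.27, limma adjusted p = 0.950), and it stayed below 0 with any single array left out (-0.55 to -0.17). It lay between the 69.7th and the 85.9th percentile of the intron sets.

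Among the ligands, Hbegf, the heparin-binding ligand of Egfr and Erbb4, was above background on the most arrays. It was at 6.73, 6.32, 6.35 and 6.46 in control and 7.33, 6.64, 6.13 and 6.53 in a3a6KO, and a3a6KO 1 and 4 exceeded background. The a3a6KO group held both the highest and the lowest value. The difference was 0.19 (SE 0.253, 95% interval -0.38 to 0.76, limma adjusted p = 0.964) and became -0.032 without a3a6KO 1.

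Btc, betacellulin, was at 6.16, 5.52, 6.16 and 5.56 in control and 6.64, 6.17, 6.11 and 5.64 in a3a6KO. Control 2 and 4 and a3a6KO 4 were the low arrays, and a3a6KO 1 and, by a small margin, a3a6KO 2 exceeded every control array. Its difference was 0.29 (SE 0.256, 95% interval -0.29 to 0.87, limma adjusted p = 0.950). It was 0.12 without a3a6KO 1 and 0.46 without a3a6KO 4. It was above the 90th percentile of the intron sets on 7 arrays and above the 95th on 0.

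Tgfa, a ligand of Egfr, was at 4.33, 4.58, 5.07 and 4.80 in control and 4.62, 4.68, 3.88 and 4.63 in a3a6KO. The other 3 a3a6KO arrays lay within the control range, and a3a6KO 3 lay below it. The difference was -0.24 (SE 0.24, 95% interval -0.78 to 0.30, limma adjusted p = 0.950) and -0.052 without a3a6KO 3.

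Ereg, epiregulin, was at 3.28, 3.41, 3.40 and 5.05 in control and 3.10, 3.55, 4.02 and 3.83 in a3a6KO. Control 4 was high and the other 7 arrays were close together. The values lay between the 51.5th and the 86.9th percentile of the intron sets, with a median of the 62.6th. The difference of -0.16 (SE 0.399, 95% interval -1.06 to 0.74, limma adjusted p = 0.978) turned to 0.26 without control 4.

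Nrg1, the neuregulin of the set, was at 4.58, 6.06, 5.24 and 6.87 in control and 6.14, 4.75, 5.0 and 4.46 in a3a6KO. Control 4 alone exceeded background, control 1 was among the lowest arrays, and a3a6KO 1 was among the highest. The difference was -0.60 (SE 0.515, 95% interval -1.76 to 0.56, limma adjusted p = 0.950), and it was -0.21 without control 4, -0.39 without a3a6KO 4, -0.97 without control 1 and -0.95 without a3a6KO 1. Basal marker scores (mean deviation from the mean of all arrays, log2) were -0.24, 0.89, -0.36 and 1.36 in control and -0.86, -0.82, 0.78 and -0.76 in a3a6KO. Control 2 and 4 were thus high in both Nrg1 and basal markers, while a3a6KO 1 was high in Nrg1 with the lowest basal score, and a3a6KO 3 had a high basal score with an Nrg1 value below the mean of the 8 arrays. With the basal score as a covariate the Nrg1 difference was -0.16 (limma adjusted p = 0.989). Group and basal score went partly together on these arrays, so this fit cannot fully tell them apart. The part of basal cells in the Nrg1 values was not tested further. Exact permutation tests of the 9 genes, two-sided over 70 assignments of samples to groups, gave p-values from 0.257 (Btc) to 0.829 (Ereg), where the smallest possible is 0.0286.

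By the median of the 9 genes, a3a6KO 3 was the array that stood lowest. It held the lowest value of 3 of the 9 genes (Erbb2, Hbegf and Tgfa), and the median deviation of the 9 genes from their means was -0.39 on it, against -0.10 to 0.20 on the other 7. On a3a6KO 3, Ereg and Btc lay above their means, by 0.315 and 0.115, and the other genes of the set lay below theirs. Over all genes the median deviation of a3a6KO 3 was -0.020. The same array had high basal (0.78), endothelial (1.14) and fibroblast (0.60) marker scores and the lowest immediate early score (-0.45). Its luminal marker score was -0.13, within the range of the other arrays (-0.20 to 0.21). Control 4 also had high basal (1.36), endothelial (1.47) and fibroblast (0.57) scores, but the highest median deviation of the 9 genes (0.20). The part of these scores in the values of the 9 genes was not tested. Without control 4 and a3a6KO 3 together, a choice made after the data were seen, 0 of the 9 genes passed and the median difference was 0.13 in place of -0.16. The median over all genes was -0.0025.

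**Figure D2:**
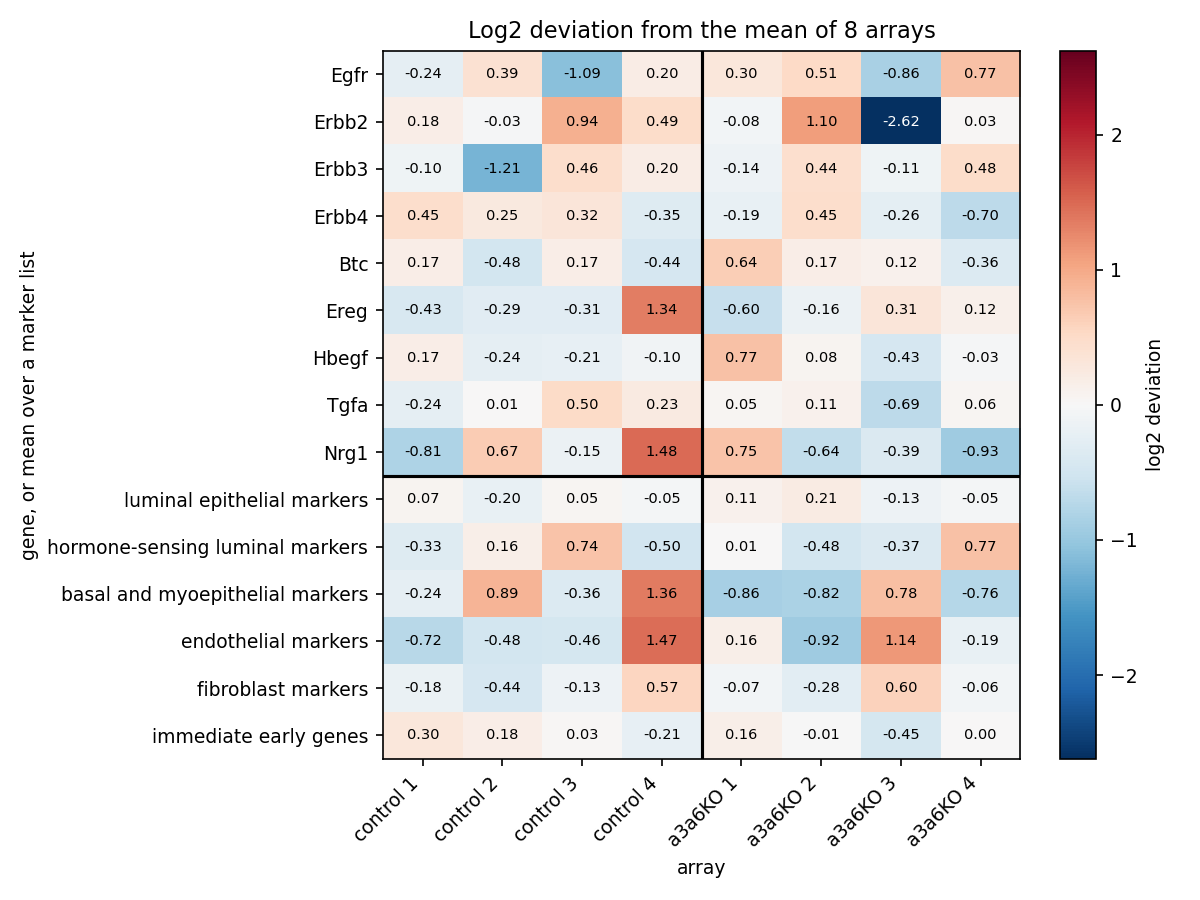
Log2 deviation of each gene from its mean over the 8 arrays (upper rows) and of marker lists, each the mean over its genes (lower rows), by array, with control to the left of the vertical line and a3a6KO to the right. Erbb2 was 2.62 below its mean on a3a6KO 3, an array with high basal and endothelial marker scores. On control 4, where both of these scores were the highest, Erbb2 was 0.489 above its mean. No row separates the groups.

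The remaining ligands of the family were near or within background throughout. Egf, the founding ligand of Egfr, ranged from 2.06 to 2.80 and Nrg3 from 1.89 to 2.62, under the intron median on every array. Epgn, epigen, differed by 0.16 (SE 0.347) and Nrg4 by -0.25 (SE 0.342). Nrg2, a neuregulin that binds Erbb3 and Erbb4, was the exception in pattern. It was at 6.22, 6.26, 6.22 and 5.85 in control and 5.42, 5.16, 5.42 and 5.28 in a3a6KO. Each a3a6KO value lay below each control value, as in 573 of all genes in either direction (2.94%). The difference was -0.82 (SE 0.163, 95% interval -1.18 to -0.45), and it did not pass over all genes (limma adjusted p = 0.743). It ran from -0.91 to -0.76 with single arrays left out. Nrg2 exceeded background on 0 arrays, so the size of its difference is uncertain.

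Genes that release the ligands were measured for 13 of 14 list members, of which 6 were higher and 7 lower in a3a6KO and 0 passed. Their median difference was -0.025, beside -0.0025 over all genes. It ran from -0.22 without control 2 to 0.052 without control 3 and was 0.305 over the 3 list genes above background on at least 4 arrays. Rhbdf2, an inactive rhomboid protein that brings Adam17 to the cell surface, was at 6.61, 6.68, 6.67 and 7.14 in control and 6.20, 5.94, 5.80 and 5.44 in a3a6KO. These groups did not overlap, but the difference of -0.93 (SE 0.21, 95% interval -1.40 to -0.46) did not pass (limma adjusted p = 0.885), and 2 arrays, both control, exceeded background. Adam17, the main protease of Egfr ligands, differed by -0.45 (SE 0.349), the related protease gene Adam10 by 0.39 (SE 0.508), and Furin, a protease of the secretory route, by -0.38 (SE 0.189). All 3 intervals included 0.

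Adaptors and relay kinases downstream of the receptors showed no common direction, with 13 of 25 measured genes higher, 12 lower and 0 past the threshold. Their median of 0.068 turned to -0.035 without a3a6KO 2, -0.032 without control 3 and -0.018 without a3a6KO 4. The phospholipase gene Plcg1 differed by 0.55 (SE 0.25), the adaptor gene Gab2 by 0.35 (SE 0.18) and the kinase gene Araf by -0.94 (SE 0.475). Nras, a small GTPase gene, was at 6.22, 5.96, 6.13 and 6.21 in control and 6.25, 6.59, 6.34 and 6.61 in a3a6KO. Its groups did not overlap, and its difference of 0.32 (SE 0.16) did not pass (limma adjusted p = 0.944).

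Inhibitors of ErbB receptors and genes of receptor turnover were higher in 16 of 23 members, beside 49.9% of all genes, with 0 past the threshold. Their median of 0.11 was 0.028 without a3a6KO 4 and 0.24 without control 4. Sh3kbp1, an adaptor of receptor uptake, differed by 1.04 (SE 0.421), with a3a6KO values of 7.10, 8.11, 7.83 and 7.83 and control values of 6.29, 7.47, 5.60 and 7.35. These groups overlapped through control 2 and 4. Socs5, which promotes loss of Egfr, differed by 0.55 (SE 0.221), the membrane protein gene Lrig3 by 0.88 (SE 0.418) and the ubiquitin ligase gene Itch by -0.40 (SE 0.29). Errfi1, a feedback inhibitor that binds the kinase domain of Egfr, was above background on all arrays. Its control mean was 9.83 ± 0.22 and its a3a6KO mean 9.67 ± 0.23, which differ by -0.16 (SE 0.186, 95% interval -0.58 to 0.26). The smallest limma adjusted p in this list was 0.944.

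Genes induced by the MAP kinase route are a readout downstream of the receptors that other receptors share. They were higher in 12 of 16 measured members, beside 49.9% of all genes, with a median of 0.14. Of these genes, 0 passed the threshold (smallest limma adjusted p = 0.944) and 0 had an unadjusted limma p under 0.05. The median was 0.061 without a3a6KO 2, 0.22 without control 4 and 0.33 with the basal covariate. Of the 16, 6 were above background on all arrays. The feedback inhibitor gene Spry2 was at 7.20, 6.66, 6.45 and 6.34 in control and 7.12, 7.06, 7.01 and 7.38 in a3a6KO, and its difference was 0.48 (SE 0.214). Control 1 lay within the a3a6KO range and the other 3 controls below it. Spred2, another inhibitor of the route, differed by 1.20 (SE 0.554), the AP-1 factor gene Fosl1 by 0.41 (SE 0.294), and the transcription factor gene Etv1 by -0.36 (SE 0.257). The phosphatase gene Dusp6 differed by 0.17 (SE 0.311), with a control mean of 7.69 ± 0.17 and an a3a6KO mean of 7.86 ± 0.68.

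Among 8 genes of Stat5 and its output in luminal cells, 6 were lower in a3a6KO, beside 50.1% of all genes. Their median was -0.30 and 0 passed the threshold. At an unadjusted limma p under 0.05 there were 3 of the 8 (Cish, Lalba and Wap), all lower in a3a6KO, beside 5.13% of all genes. The median ran from -0.44 without a3a6KO 4 to -0.19 without a3a6KO 3. The Stat5-induced inhibitor gene Cish differed by -1.17 (SE 0.348), the milk protein genes Lalba by -0.74 (SE 0.306) and Wap by -0.58 (SE 0.258), and the alveolar factor gene Elf5 by -0.30 (SE 0.213). Immediate early genes are those that cells induce within a short time of a stimulus. Of 19 such genes, 13 were lower in a3a6KO, beside 50.1% of all genes, and 0 passed. Their median of -0.14 became 0.059 without a3a6KO 3 and -0.43 with the basal covariate. Their smallest p-values belonged to Egr3 (-0.66, SE 0.254), Btg2 (-0.60, SE 0.237), Atf3 (-0.44, SE 0.20) and Zfp36 (-0.35, SE 0.188). In the 7 lists outside the 9 genes, 109 genes were measured and 0 passed in the limma fit. Of these, 9 had an unadjusted p under 0.05, beside 5.13% of all genes, and groups did not overlap in 4, Nrg2, Rhbdf2, Nras and Btg2, beside 2.94%.

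**Figure D3:**
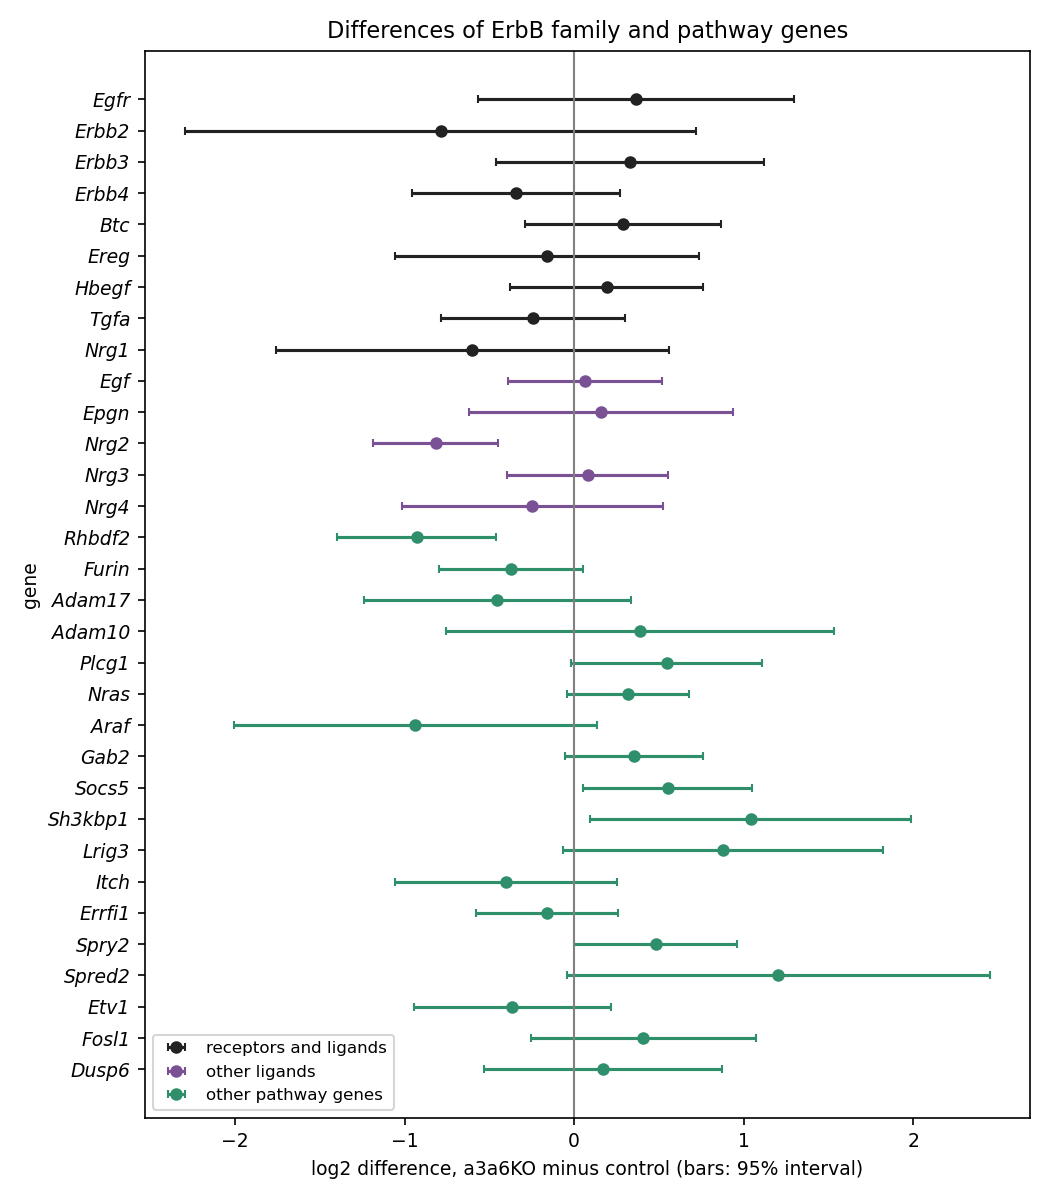
Log2 difference, a3a6KO minus control (horizontal axis), with its 95% interval from the limma fit (bars). Genes are the 9 receptor and ligand genes (black) and the other ligands of the family (purple). Green marks named genes of ligand release, adaptors and relay, inhibitors and turnover, and the MAPK-induced list. Each black interval includes 0. Among the other genes drawn, those of Nrg2 and Rhbdf2 lie below 0 and those of Socs5 and Sh3kbp1 above 0. Named genes of the Stat5 and immediate early lists are not drawn, and the intervals of Cish, Lalba, Wap, Egr3 and Btg2 also lie below 0. Past the threshold after adjustment over all genes were 0 genes.

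**Figure D4:**
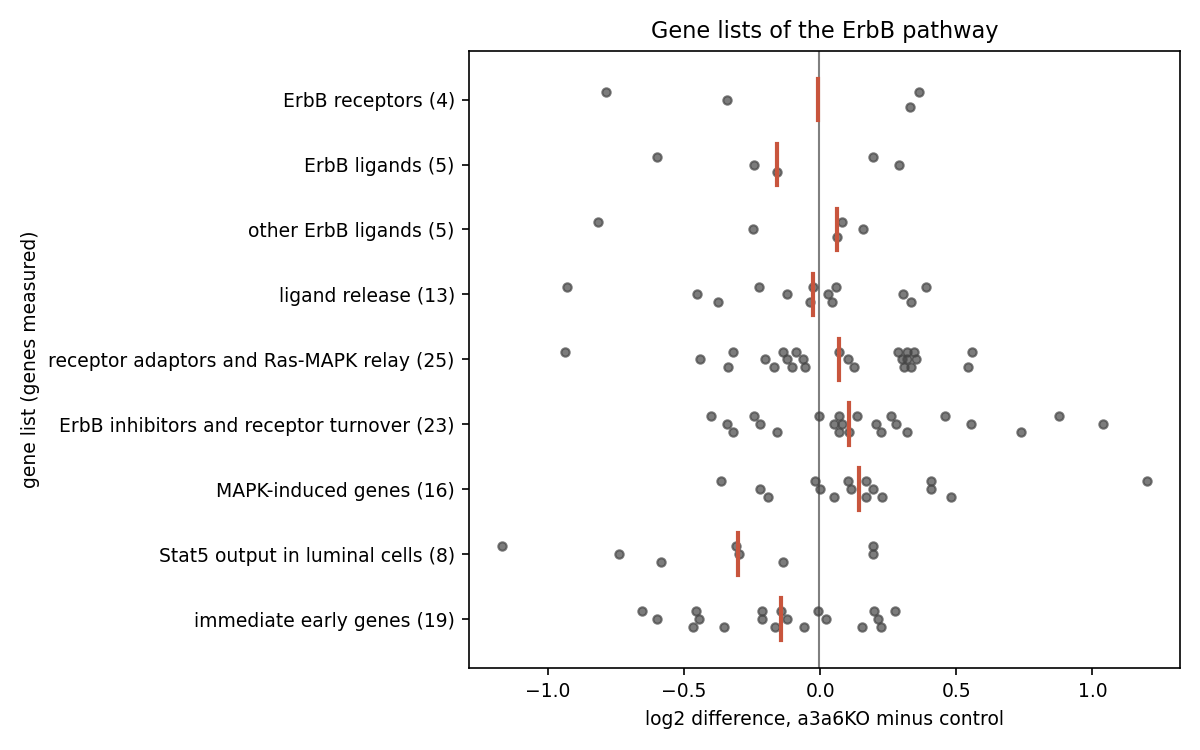
Log2 difference, a3a6KO minus control, of each measured gene (points) in 9 lists, with the median of each list (red bar). The grey line marks the median of all genes, -0.0025, and list medians run from -0.30 (Stat5 output) to 0.14 (MAPK-induced genes).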

How the data were processed

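Affymetrix arrays measured 500 pg of total RNA per sample after amplification and biotin labelling, per the labels' protocols. The authors deposited a log2 level for each probe set on each array, computed by RMA in Affymetrix Expression Console per the submitters' processing notes, which state no versions. These values entered the tests unaltered. Of 28846 probe sets, 19572 had 1 gene symbol in GEO's platform annotation, 0 had several and 9274 had none, 5222 of them intron control sets. For 55 genes with several sets, the set of highest mean was kept.

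Groups were compared with limma 3.58.1 in R 4.3.3 (8 arrays, a single group term, two-sided tests, Benjamini-Hochberg over 19505 genes, threshold 0.05), checked on simulated data. Precision is limited by how many arrays there are, and the median 95% interval over all genes was 0.53 wide on either side (median SE 0.234). The 9 genes had larger SEs, from 0.240 (Tgfa) to 0.670 (Erbb2), and so wider intervals. The genes and lists, 197 genes of which 184 were measured, 1 through an updated symbol, were chosen with earlier results of these data known. Genes named in the text were the 9 genes, the other family ligands, Itga3, Itga6, Krt8, Krt14, Errfi1, Adam17, Dusp6 and up to 4 genes of smallest p per list. Fabp4, Grb7 and Cited1 were named outside this rule. Genes most alike in pattern were to be named only for members above background on all arrays, and 0 were. Alternatives were other probe set, normalization, filter, variance and weight settings, a replicate block, a basal marker covariate, another background percentile and single arrays left out. Same-numbered samples did not deviate together (correlations over genes of -0.061 to 0.039), so numbers were not taken as pairs.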

Additional observations from a re-analysis of the deposited data

Results flagged for a closer look

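Of 72 groups of 4 values examined, 2 for each of 36 named genes, 6 held a sample far from the other 3 by Dixon's 95% limit. For normally distributed values about 5% would be flagged. Some of the 36 genes were picked for a small p, and the share flagged over all genes was not computed. Whether 6 of 72 is unusual on these arrays is therefore not known. Ereg stood at 5.05 in control 4 and at 3.28 to 3.41 in the other controls. Tgfa was at 3.88 in a3a6KO 3 and at 4.62 to 4.68 in the others. Nrg2 was at 5.85 in control 4 and at 6.22 to 6.26 in the others, and Rhbdf2 at 7.14 in control 4 against 6.61 to 6.68. Nrg4 was at 5.57 in control 2 against 4.27 to 4.46. Araf was at 4.86 in a3a6KO 3 against 6.33 to 6.49. Control 4 and a3a6KO 3, which gave 5 of the 6, were also the arrays with the highest endothelial marker scores (1.47 and 1.14). Without these 2 arrays, a choice made after the data were seen, Ereg differed by 0.13, Tgfa by -0.017, Nrg2 by -0.95 and Rhbdf2 by -0.79 (a3a6KO minus control, log2).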

How the results depend on the processing

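In each of the 8 fits without 1 array and the 9 other alternatives, 0 genes over the array, 0 of the measured receptor and ligand genes and 0 other pathway genes passed the limma threshold. Limma adjusted p-values of the 9 genes were 0.831 to 0.999 over these alternatives. Leaving out genes near background kept Erbb3 alone of the 9 and gave no median for them. The median difference of the 9 genes was -0.28 to 0.19 with single arrays left out (0.19 without control 4), -0.020 with the basal covariate and 0.13 without control 4 and a3a6KO 3 together, the last added after the data were seen. The direction turned with the basal covariate for Ereg (0.31) and Hbegf (-0.020), and for Ereg without control 4 and a3a6KO 3 (0.13). With single arrays left out, Erbb3 ran from -0.019 to 0.54, Ereg from -0.33 to 0.26 and Hbegf from -0.032 to 0.37. The cause of these turns was not tested. With the replicate block, 0 genes passed, the 9 differences were the same by construction, and 1 of 8 samples correlated best with its own number. Against the 99th percentile of the intron sets, 0 of the 9 genes exceeded background on any array, and against the 90th 5 did, in place of 4 (3 to 4 with single arrays left out). Signal near background limits what could be seen for the 5 genes that never exceeded it.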

Other observations

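The low Erbb2 value of a3a6KO 3 was not shared by Grb7, an adaptor gene that lies near Erbb2 on chromosome 11, with the coding gene Mien1 between them in the RefSeq table. Grb7 was picked out after its values were seen, and the cause of the low Erbb2 value was not tested. Grb7 was at 6.54, 6.94, 7.52 and 6.78 in control and 7.49, 6.81, 7.29 and 7.42 in a3a6KO. It exceeded background on 7 of 8 arrays. Cited1, a marker of hormone-sensing luminal cells that was also picked out after its values were seen, ranged from 4.88 to 9.29 between arrays, highest in control 3 and a3a6KO 4 (9.29 and 8.59). The mean log2 level of the 7 measured hormone-sensing markers was 4.14 to 5.38 in control and 4.16 to 5.41 in a3a6KO.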
